A study of Homo sapiens with 12 samples.

Results

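The comparison set the 3 libraries of the PUM2 fusion at 250 ng against the 3 libraries of the same fusion without induction, 6 of the 12 libraries of the series. All 6 came from HEK293T, a human embryonic kidney cell line labelled wild type, in which the fusion hsPUM2-ADARcdMUT is induced with doxycycline per the series' design. Each library counted reads of reporter mRNAs that carried 1 short test element beside a recorder. The members described are the 1005 elements of 8 bases listed in all 12 libraries, out of 1006 entries common to all libraries and 1022 seen in any. Group and replicate number came from the library titles, and the series calls the replicates biological. The titled amount names neither a substance nor a volume, the extraction text names zebrafish embryos where the source gives HEK293T, and the reads cover the reporter only, so no marker gene of the cells was measured here. The promoter of the fusion and the level of the fusion protein were not given in the sources used here.

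PUM2 is a Pumilio protein, a repressor in the cytoplasm that binds the 3′ untranslated regions of mRNAs and helps to shorten their poly(A) tails and lower their translation. Its RNA-binding domain is built from a row of repeats that each contact about one base, and the best-known target is the Pumilio response element TGTANATA, written here in DNA letters with N for any base. ADAR enzymes turn adenosine into inosine, which is read as G, so a fused ADAR catalytic domain marks RNAs near which the fusion has been. The mark is a record of edits and not a direct count of bound protein.

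The elements form a mutational scan of this site. They are the 4 consensus elements, all 84 elements with 1 substitution and all 756 with 2 substitutions at the 7 fixed positions, 88 that read as the consensus backwards with at most 1 mismatch, and 73 others. The sequences below, in DNA letters 5′ to 3′, are those on which the results turn. Capitals mark base 5 in the consensus elements, the departures from the consensus in the substituted ones, and TGTA or TGT in the elements where it lies elsewhere or the rest is unrelated.
Consensus with T at base 5: tgtaTata
Consensus with C at base 5: tgtaCata
Consensus with A at base 5: tgtaAata
Consensus with G at base 5: tgtaGata
Highest with 1 substitution (A8T): tgtatatT
Highest with 2 substitutions (T7G and A8T): tgtacaGT
Substituted at base 3 (T3G), called lower: tgGatata
TGTA moved to base 2: aTGTAtag
TGTA moved to base 3 (G2C and A4G): tcTGTAta
TGTA moved to base 5 (T1G and A6G): ggtaTGTA
Lowest relative change: attgaTGT
Lowest level at 250 ng (T1G and A6G): GgtaaGta
A token such as A8T gives the consensus base, its position counted from 1 at the 5′ end, and the base of the element.

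For each element 3 quantities were followed, and the first is the product of the other two divided by 7. The editing level counts edits over all reads of an element, as a percent of the 7 adenosines a read's recorder holds. The share of edited reads is the percent of reads with at least 1 edit. Edits per edited read gives how many adenosines were changed in a read that was edited at all. The non-induced libraries held 11272201 to 12994269 reads and the 250 ng libraries 14806339 to 25127959, of which the elements took 97.2% to 97.4%. The median element had 10472 to 12253 reads in a non-induced library and 14260 to 23829 at 250 ng, so that counting alone put an error of typically 0.239 percentage points on a share of edited reads without induction and 0.319 at 250 ng. The typical SD between replicates was larger, at 0.322 and 0.491 percentage points, and the replicate spread is used below.

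Every element was edited more at 250 ng. The median editing level over the elements was 1.73%, 1.93% and 1.81% in the 3 non-induced libraries and 7.78%, 7.87% and 7.97% at 250 ng. The groups did not overlap, and their means of 1.82% ± 0.0991 and 7.87% ± 0.0992 (SD, n = 3) lay 4.32-fold apart (p = 0.10 by two-sided exact permutation, which cannot go lower with 3 libraries a group, and 0.107 after Benjamini-Hochberg adjustment over the 15 values tested this way). In single elements the ratio of the mean levels ran from 3.25 to 7.68 with a median of 4.34, and in all 1005 elements the lowest 250 ng library lay above the highest non-induced one. limma called 1005 of 1005 elements higher at an adjusted p under 0.05, or 100% of those tested, and the median log2 odds rose by 2.21.

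Both parts of the level rose, the share of edited reads by more than the edits per edited read. The library median of the share was 6.94%, 7.12% and 6.90% without induction and 21.8%, 22.4% and 22.6% at 250 ng, a 3.19-fold difference between means of 6.99% ± 0.118 and 22.3% ± 0.402 (exact p = 0.10, adjusted 0.107). The median number of edits per edited read was 1.74, 1.90 and 1.84 without induction and 2.50, 2.46 and 2.47 at 250 ng, a 1.36-fold difference between 1.83 ± 0.0777 and 2.48 ± 0.0176 (exact p = 0.10, adjusted 0.107). The groups did not overlap in either quantity. Per element, the ratio of shares ran from 2.61 to 4.46 and the ratio of edits per edited read from 1.19 to 1.72. For each of these quantities limma also called 1005 elements higher (100% of those tested).

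**Figure D1:**
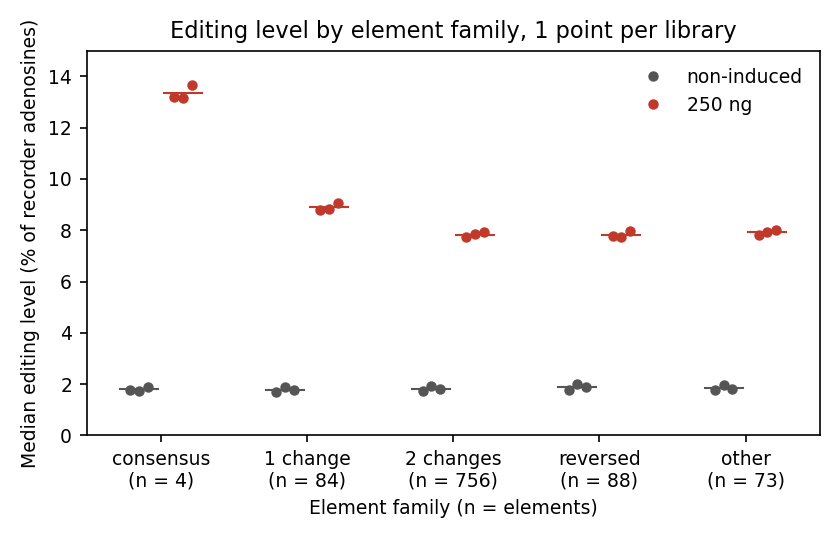
Median editing level (percent of recorder adenosines) of each element family in each library, with non-induced libraries in grey and 250 ng libraries in red, 1 point per library and a line at the mean of 3. The families lie between 1.79% and 1.89% on average without induction, and at 250 ng the 4 consensus elements stand at 13.3% and the 84 elements with 1 change at 8.90%, above the other families at 7.83% to 7.93%.

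Against this shared rise the consensus elements stood apart. Their median level was 13.2%, 13.15% and 13.7% at 250 ng, while that of the 652 elements without TGT was 7.70%, 7.81% and 7.89%. The ratio of these medians was 1.71 ± 0.0240 at 250 ng and 0.992 ± 0.0821 without induction (n = 3 each). Expressed as a difference in log2 odds of editing, the consensus preference was 0.06, -0.16 and 0.06 in the non-induced libraries and 0.86, 0.84 and 0.89 at 250 ng (exact p = 0.10, adjusted 0.107). The non-induced libraries lay on both sides of 0 and the 250 ng libraries all lay well above them. The preference appeared in both parts of the level: consensus over no TGT was 1.32 ± 0.0164 in the share of edited reads (0.968 ± 0.0336 without induction) and 1.30 ± 0.0193 in edits per edited read (1.03 ± 0.0300). In log2 units the same preference rose from -0.05 to 0.53 in the odds of a read being edited and from 0.04 to 0.38 in edits per edited read (exact p = 0.10 and adjusted 0.107 for each). An edited read of a consensus element carried 3.20 ± 0.0383 edits at 250 ng, against 2.46 ± 0.0167 for elements without TGT.

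Among the 4 consensus elements the order at 250 ng followed base 5, with T, C and A close together and G below. The level of tgtaTata was 2.003%, 1.63% and 1.79% without induction and 13.9%, 13.5% and 14.2% at 250 ng, the highest of all elements. That of tgtaCata was 1.74%, 2.02% and 1.87%, then 13.5%, 13.04% and 13.8%. That of tgtaAata was 1.83%, 1.60% and 1.90%, then 12.9%, 13.3% and 13.6%. Across libraries the 250 ng values of these 3 elements overlapped. Within each 250 ng library tgtaTata was the highest of them, while the order of tgtaCata and tgtaAata differed between libraries. The level of tgtaGata was 1.56%, 1.80% and 1.88% without induction and 11.7%, 11.3% and 11.4% at 250 ng, below every value of the other consensus elements, and elements with A8T or with both T7G and A8T reached the same level.

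**Figure D2:**
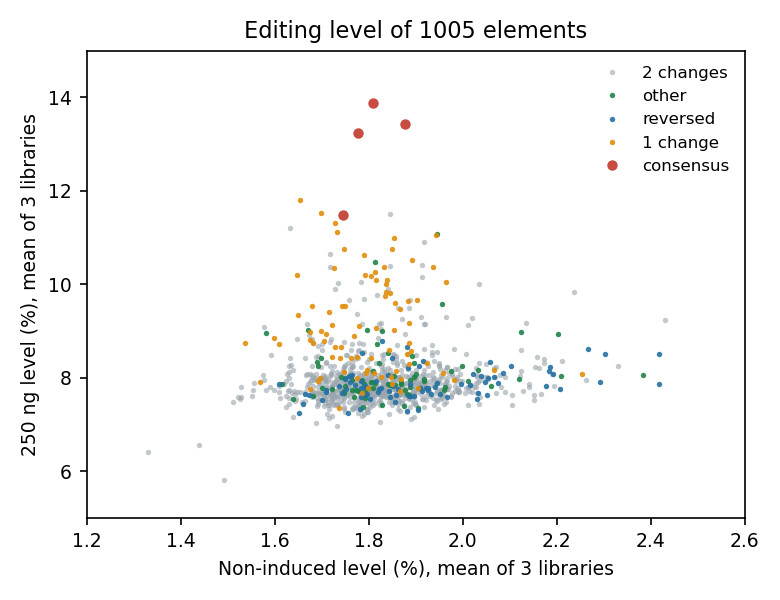
Editing level of each of the 1005 elements (percent, mean of 3 libraries) at 250 ng against the non-induced level, coloured by family. Non-induced levels run from 1.33% to 2.43% and do not sort the families, while at 250 ng the 4 consensus elements lie at 11.5% to 13.9% and the elements with 1 change spread from 7.35% to 11.8%.

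The shared rise was then removed by centring each library on its median log2 odds, and the change of each element relative to that median was tested with limma. Of 1005 elements 97 rose relative to the median (9.65%) and 33 fell (3.28%). All 4 consensus elements rose, as did 46 of the 84 with 1 substitution, 40 of the 756 with 2 substitutions, 0 of the 88 reversed elements and 7 of the 73 others. The median relative change was 0.26 for 1 substitution, 0.00 for 2 substitutions and -0.08 for the reversed elements, beside 0.01 over all elements. Of the elements that fell, 22 had 2 substitutions, 7 were reversed, 3 belonged to the others and 1 had 1 substitution. By sequence, 63 of the 181 elements that held TGTA outside the consensus rose and 1 fell, while 8 rose and 10 fell of 168 with TGT alone and 22 rose and 22 fell of 652 without TGT. The count of falls rested on every 250 ng library: leaving out replicate 1, 2 or 3 of that group left 12, 13 or 12 falls, beside 66, 73 and 66 rises.

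Of the 12 largest relative increases, all but that of tcTGTAta (0.57, described below with the shifted sites) belonged to elements that kept TGTA at the start. The consensus elements gained 0.93 (SE 0.12, limma adjusted p = 7.66e-05) for T, 0.87 for A, 0.82 for C and 0.67 for G at base 5. Next to them, tgtatatT gained 0.80 (SE 0.09, limma adjusted p = 1.65e-05) and reached 11.8% ± 0.481 from 1.65% ± 0.298. The A8T forms tgtacatT and tgtaaatT reached 11.5% ± 0.0835 and 11.1% ± 0.318, the T7A form tgtacaAa 11.3% ± 0.309 and the A6G form tgtaaGta 10.8% ± 0.115. The double forms tgtacaGG and tgtacaGT, which end in a pair of changed bases, reached 11.2% ± 0.103 and 11.5% ± 0.415. The 20 highest levels at 250 ng were held by the 4 consensus elements, 10 elements with 1 substitution, 4 with 2 and 2 others, and all 20 contained TGTA. Of the 10 with 1 substitution, 5 were changed at base 8, 4 at base 7 and 1 at base 6.

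How much of the consensus level was lost differed by the position of a single substitution. Averaged over the 12 elements of a position and compared with the consensus element of the same base 5 in the same library, the loss in log2 odds at 250 ng was deepest at base 3 (-0.75 ± 0.03, SD, n = 3) and base 1 (-0.72 ± 0.04), then base 2 (-0.65 ± 0.04), base 4 (-0.55 ± 0.02), base 6 (-0.51 ± 0.01), base 7 (-0.50 ± 0.02) and base 8 (-0.41 ± 0.02). In this order bases 3 and 1, 1 and 2, and 6 and 7 overlapped between libraries, and the other neighbours did not. Within each 250 ng library base 3 lay below base 1 and base 1 below base 2, while the order of bases 6 and 7 differed between libraries. Without induction the same averages lay between -0.05 and 0.06. For each position the 250 ng libraries lay below all non-induced ones (exact p = 0.10, adjusted 0.107). The order of bases 4, 6 and 7 depended on the summary. Their median levels at 250 ng were 9.37%, 9.55% and 9.14%. Their differences in log2 odds from the non-induced average were -0.61, -0.48 and -0.53. Relative increases were called for 11 of the 12 elements changed at base 8, 8 at base 7, 9 each at bases 6 and 4, 5 at base 2, 3 at base 1 and 1 at base 3.

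**Figure D3:**
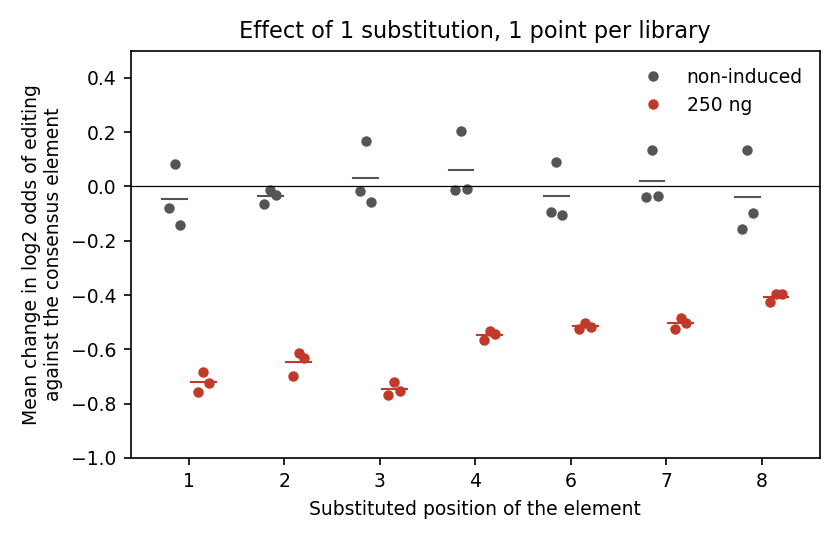
Mean change in log2 odds of editing of elements with 1 substitution at each fixed position, against the consensus element of the same base 5 in the same library, with 1 point per library, non-induced in grey and 250 ng in red, and a line at the mean of 3. At 250 ng all points are below 0, from -0.75 on average at position 3 to -0.41 at position 8, while the non-induced means lie between -0.05 and 0.06.

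Within a position the substituted base mattered. At base 8 the elements with T averaged 10.96% ± 0.218, those with G 10.1% ± 0.297 and those with C 9.48% ± 0.145. The only element changed at base 8 that was not called is tgtagatC, with G at base 5, at 7.99% ± 0.0486. At base 7, T7A averaged 10.4% ± 0.214 and T7G 9.88% ± 0.136, and every library of both lay above the T7C average of 8.46% ± 0.154. At base 2 the libraries of G2A, which swaps one purine for the other, gave 9.18%, 9.70% and 9.84%, above those of G2T (8.30%, 8.45% and 8.76%) and G2C (7.88%, 8.16% and 8.33%). At base 6 A6G averaged 9.77% ± 0.169, A6T 9.64% ± 0.199 and A6C 9.05% ± 0.0325, and at base 4 the 3 substitutions lay between 9.21% and 9.42%. At base 1, T1A averaged 8.69% ± 0.151, T1C 8.13% ± 0.249 and T1G 8.12% ± 0.214, with overlapping libraries for the latter pair.

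Substitutions at base 3 left levels near the common one, as did several at bases 1 and 2. The averages at base 3 were 8.27% ± 0.170 for T3C, 8.23% ± 0.180 for T3A and 8.01% ± 0.0315 for T3G, close to the 7.87% of the median element. The 1 rise at this position was tgCacata, at 8.78% ± 0.137 (relative change 0.27, SE 0.07, limma adjusted p = 0.0132, and up to 0.0624 with 1 library left out, the call being lost without 250 ng replicate 1 or 3 or non-induced replicate 2). The 1 fall among all single substitutions was tgGatata, which went from 2.25% ± 0.0441 to 8.08% ± 0.0725 (relative change -0.27, SE 0.08, limma adjusted p = 0.0370), a call lost in 5 of 6 fits with 1 library left out, all but the one without non-induced replicate 2 (adjusted p up to 0.149). Its non-induced level was above the library median of 1.82%, and its level at 250 ng was not below the 7.87% of the median element. These 2 elements, like the others given for counts of 5 or fewer, were singled out after their values were seen.

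Levels also differed by base 5, which the consensus leaves free, among the weaker sites. For single substitutions the median level at 250 ng was 9.96% ± 0.316 with T at base 5, 9.22% ± 0.225 with C, 9.01% ± 0.127 with A and 8.10% ± 0.0335 with G. Relative rises were called in 14, 16, 12 and 4 of 21 elements in that order. The 4 with G were tgtagatT at 9.40%, tgtagaAa at 9.06%, tgtagatG at 8.75% and tgtagTta at 8.72%. With 2 substitutions the medians were 8.15% with T, 7.82% with C, 7.78% with A and 7.67% with G, and 23, 10, 6 and 1 of 189 elements rose while 4, 5, 4 and 9 fell. The 1 with G that rose was tgtagaGT at 8.41% ± 0.297. The calls of tgtagaAa and tgtagaGT were each lost in 5 of 6 fits with 1 library left out, all but the one without non-induced replicate 3, with adjusted p up to 0.122 and 0.191. Without induction the 4 medians of the singles lay between 1.77% and 1.81%. The relative number of reads moved in the same order of T, C, A and G. Its median log2 changes were 0.19, 0.09, -0.02 and -0.05 for 1 substitution and 0.14, 0.03, -0.03 and -0.08 for 2. The part of reads in these differences was not tested.

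A second substitution brought most elements down to the common level. In log2 odds relative to the consensus, the double elements lay 0.38 ± 0.02 (SD, n = 3) above the sum of their 2 single changes at 250 ng, against 0.02 ± 0.12 without induction (exact p = 0.10, adjusted 0.107). At 250 ng 740 of 756 doubles lay above that sum, 720 of them in all 3 libraries, and 440 did so without induction. The consensus itself lay only 0.86 in log2 odds above elements without TGT at 250 ng. Single changes averaged -0.41 to -0.75 by position, so a sum of 2 can lie below the common level. The excess therefore cannot be told apart from a level that most elements share. The median level per pair of positions ran from 7.58% to 8.07%, with 1 exception. Elements changed at bases 7 and 8 had a median of 8.70% ± 0.117, a range of 7.65% to 11.5%, and 13 of 36 called higher. The pair of bases 6 and 8 followed at 8.07% ± 0.0446 with 4 of 36 called higher, namely tgtatTtT, tgtaaTtT, tgtacTtT and tgtaaGtT, all with T at base 8. The call of tgtacTtT was lost in 5 of 6 fits with 1 library left out, all but the one without non-induced replicate 2 (adjusted p up to 0.159). The pair of bases 6 and 7 had 0 of 36 called in either direction at a median of 7.98% ± 0.0398.

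**Figure D4:**
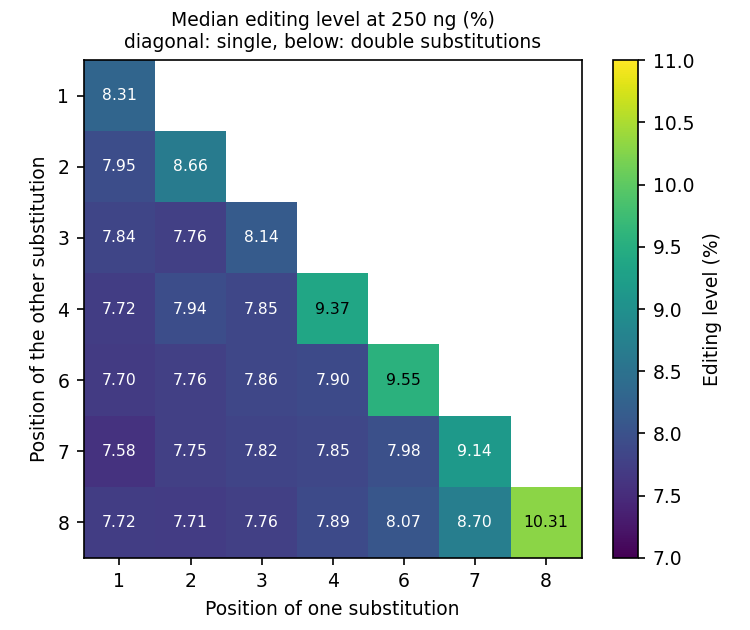
Median editing level at 250 ng (percent, mean of 3 libraries) for elements with substitutions at 1 position (diagonal, 12 elements each) or at 2 positions (below the diagonal, 36 elements each), with the colour scale from dark for low to yellow for high. Single changes run from 8.14% at position 3 to 10.3% at position 8, and among pairs only positions 7 and 8 exceed 8.07%, at 8.70%.

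The element farthest above the sum of its single changes was tgGaaaCa (T3G and T7C), by 0.88 ± 0.05, at a level of 8.24% ± 0.169, near the common level. The farthest below was GgtaaGta, at -0.19 ± 0.08. GgtaaGta also had the lowest level of all elements at 250 ng, 5.47%, 6.07% and 5.91%, with a share of edited reads of 16.3% ± 0.959 against a library median of 22.3%. It was low without induction too, at 1.38%, 1.40% and 1.70%, and its relative change of -0.17 was not called (SE 0.10, limma adjusted p = 0.307). The next lowest, CgtGcata at 6.41% ± 0.123 and tgtGcCta at 6.56% ± 0.237, were likewise low without induction, at 1.33% ± 0.138 and 1.44% ± 0.201, and not called.

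Elements with TGTA away from the start also rose. Of the elements that hold it elsewhere, 3 have it at base 2, 13 at base 3, 4 at base 4 and 12 at base 5, with median levels at 250 ng of 10.5% ± 0.106, 9.34% ± 0.316, 9.01% ± 0.227 and 9.36% ± 0.122, and 2, 7, 2 and 6 of them were called higher. The 108 double substitutions that keep TGTA at base 1 but are changed at 2 of bases 6 to 8 had a median of 8.12% ± 0.0518, with 17 called higher and 1 lower. That 1 was tgtagCtC at 7.58% ± 0.05003 (relative change -0.18, SE 0.06, limma adjusted p = 0.0440), and its call was lost in 5 of 6 fits with 1 library left out, all but the one without non-induced replicate 2 (adjusted p up to 0.189). What lies around the element in the reporter was not used here, so sites that run past the last base cannot be read in full.

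The libraries of aTGTAtag gave 10.95%, 11.1% and 11.1% at 250 ng and 1.70%, 2.14% and 1.9996% without induction, a relative gain of 0.45 (SE 0.06, limma adjusted p = 8.72e-05). The groups did not overlap, and its level ranked 11 of 1005. Its neighbours in register, aTGTAcat at 10.5% ± 0.106 and aTGTAtgt at 8.52% ± 0.186, differed only after TGTA, and the second was not called (relative change 0.15, limma adjusted p = 0.208). With TGTA at base 3 followed by TA, tcTGTAta reached 10.6% ± 0.231, ttTGTAta 10.4% ± 0.245 and tgTGTAta 10.4% ± 0.180. All 3 are counted as 1 or 2 substitutions of the consensus, and all were called higher, with gains of 0.57, 0.53 and 0.35. With TGTA at the very end, ggtaTGTA reached 10.4% ± 0.0524 and tgcaTGTA 9.89% ± 0.265, both called higher, at 0.80 and 0.73 above the sum of their single changes. Such an excess was not particular to them, since tgGaaaCa, without TGTA and near the common level, lay 0.88 above its sum. With TGTA at base 4, ataTGTAt (9.01% ± 0.454) and caaTGTAt (9.003% ± 0.0900) were called higher, and aaaTGTAt (9.58% ± 0.272) and ataTGTAc (8.32% ± 0.110) were not. The call of caaTGTAt was lost without any 1 of the 250 ng libraries or non-induced replicate 3 (adjusted p up to 0.161).

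Elements without TGTA rose in smaller numbers. The 6 largest called gains were those of tAtatatT (0.44), tCtatata and tAtatata (0.42 each), Agtatata, gtacatat and tgtTtata (0.41 each). All but gtacatat are 1 or 2 substitutions away from tgtaTata. In the order listed, the 6 elements had log2 changes in reads of 0.48, 0.37, 0.36, 0.35, 0.28 and 0.15. Over the 1005 elements the relative editing change correlated with the change in reads at r = 0.311. The part of reads in these gains was not tested. The level of tAtatata was 9.78%, 10.3% and 10.4% at 250 ng and 1.83%, 1.81% and 1.77% without induction, and that of tgtTtata was 9.85%, 9.77% and 10.7% after 1.62%, 2.14% and 1.69%. The 250 ng values of both lay above the 7.97% of the highest library median. The gain of tAtatatT was the least certain (SE 0.13, limma adjusted p = 0.0351): it lost its call when any 1 of the 6 libraries was left out, with adjusted p between 0.0510 and 0.149. The other elements changed at base 1 that rose were Agtacata at 8.99% ± 0.105 and Cgtatata at 8.81% ± 0.521, the latter losing its call without 250 ng replicate 2 or 3 or non-induced replicate 3 (adjusted p up to 0.127).

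In elements without TGT and with up to 4 G or C, the level at 250 ng also followed base composition. The median was 8.33% ± 0.145 for the 37 elements of A and T alone, then 7.91% ± 0.153, 7.78% ± 0.124, 7.74% ± 0.0610 and 7.71% ± 0.0524 for 1, 2, 3 and 4 G or C. Of these classes 5 of 37, 8 of 121, 7 of 222, 2 of 182 and 0 of 83 elements rose relative to the median, and 0, 0, 8, 8 and 6 fell. The relative number of reads moved the same way, with median log2 changes of 0.08, 0.07, 0.03, -0.00 and -0.08, and its part in the result was not tested. The medians for 1 to 4 G or C lay close together beside their SDs. Elements with 1 or 2 substitutions that hold A and T alone all have base 2 changed and A or T at base 5. The part of these positions in the order by composition was not tested either. Elements of a single repeated base were all edited at 250 ng, cccccccc at 8.97% ± 0.293, gggggggg at 8.73% ± 0.333, aaaaaaaa at 8.42% ± 0.238 and tttttttt at 8.32% ± 0.161, and none of the 4 changed relative to the median beyond the test's threshold. Elements with more than 4 G or C were in none of the classes above. Of these, cccccccc and gggggggg went against the order, with levels above the 8.33% of the elements of A and T alone.

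Among the elements that read as the site backwards, none was called higher. The 4 exact reversals stood at 8.11% ± 0.328 (atagaTGT), 7.98% ± 0.0304 (atataTGT), 7.64% ± 0.202 (ataaaTGT) and 7.59% ± 0.286 (atacaTGT), beside 7.87% for the library median, and their relative changes lay between -0.14 and 0.09 without a call. The highest reversed element was atatatat at 8.79% ± 0.276, which was not called (limma adjusted p = 0.108). The largest falls were those of attgaTGT (-0.42, SE 0.07, limma adjusted p = 0.000535), TGTgtgtg (-0.36), atacgTGT (-0.33), tgtCcaGa (-0.32), tgGataGa (-0.31) and tgtTcaGa (-0.30). The level of attgaTGT was 2.23%, 2.73% and 2.29% without induction and 7.80%, 7.78% and 7.98% at 250 ng, so it began high and ended at the common level. The fall of atacgTGT (limma adjusted p = 0.0295) was lost whichever library was left out, with adjusted p between 0.0510 and 0.128. Over all 33 elements that fell the median level was 2.12% without induction, against 1.82% for all elements, and 7.72% at 250 ng, against 7.86%. The 97 that rose began at 1.76% and reached 9.54%.

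Tested separately, both parts of the level picked out overlapping elements. For the share of edited reads 67 elements rose relative to the library median (6.67%) and 31 fell (3.08%). For edits per edited read 48 rose (4.78%) and 1 fell (0.0995%), the latter being attgaTGT (-0.16, SE 0.04, limma adjusted p = 0.0247). The 33 elements that rose in both were 49.3% of the first list and 68.8% of the second. Both measures share their reads, and the editing level, their product, shared 65 rises with the share and 46 with the edits per edited read. Of the rises in edits per edited read, 4 were consensus elements, 38 held TGTA, 4 TGT and 2 neither, the last being tAtatata and gtacatat. In tgtaTata the share went from 7.62%, 5.85% and 6.81% to 30.2%, 29.6% and 30.6%, and the edits per edited read from 1.84, 1.95 and 1.84 to 3.23, 3.19 and 3.25. The 250 ng libraries of this element lay above every non-induced one in both. The lowest changes in the share belonged to TGTgtgtg (-0.30), ataTGTgt (-0.28), tgtTcaGa (-0.27) and tgtCcaGa (-0.26). Without 250 ng replicate 1, 2 or 3 the falls in the share numbered 11, 15 and 12 and the rises in edits per edited read 26, 27 and 24. The fall of attgaTGT in edits per edited read was lost in each of these fits, which called 0 elements lower. Without replicate 1 or 3 the rises in the share numbered 43 and 44.

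**Figure D5:**
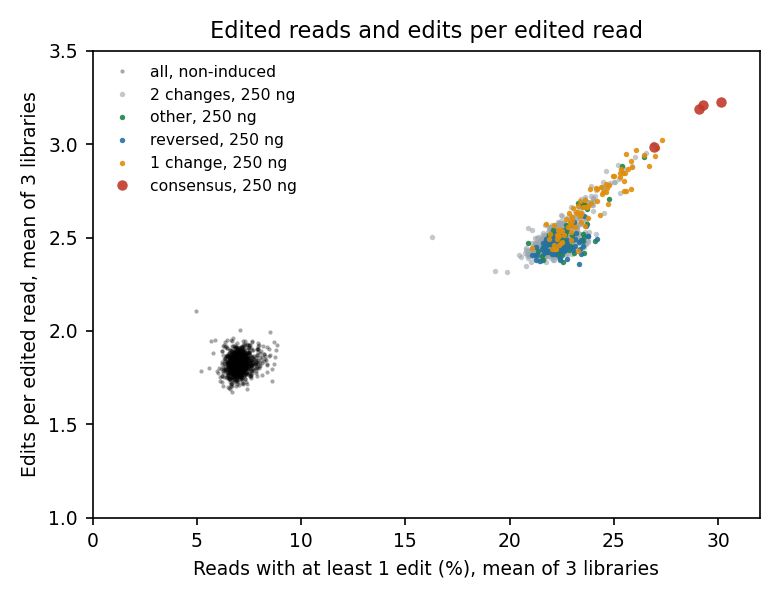
Edits per edited read against the percent of reads with at least 1 edit for each of the 1005 elements (means of 3 libraries), with non-induced values in black and 250 ng values coloured by family. The non-induced elements form 1 cloud around 6.99% of reads and 1.83 edits, and at 250 ng the elements run from a cloud around 22.3% and 2.48 edits to the consensus elements at 26.9% to 30.1% and 2.99 to 3.22 edits.

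The ranking of elements repeated between the 250 ng libraries. Across the 1005 elements the log2 odds of editing correlated at r = 0.923 to 0.939 between pairs of 250 ng libraries, at 0.340 to 0.407 between non-induced libraries and at -0.00165 to 0.0779 between the groups. Elements are not independent replicates, libraries of one group share the reporter pool, and these coefficients are descriptions. For edits per edited read the values were 0.904 to 0.930 within 250 ng and -0.00138 to 0.0308 within the non-induced group. For the share of edited reads they were 0.853 to 0.873 and 0.425 to 0.495. Within a library the SD of log2 odds over elements was 0.136 ± 0.00508 at 250 ng and 0.137 ± 0.0119 without induction, with overlapping libraries (exact p = 0.90). Measured from the quartiles instead, the spread was lower at 250 ng (difference -0.0471, exact p = 0.10). The typical SD between replicates of the centred log2 odds was 0.0850 without induction and 0.0280 at 250 ng. The similar SDs over elements therefore hold unlike amounts of replicate spread, more of it without induction.

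The number of reads per element was tested as a measure of reporter abundance. edgeR's quasi-likelihood test called 0 of 1005 elements higher (0%) and 0 lower (0%), although 436 had an unadjusted p under 0.05, and DESeq2 called 164 higher and 147 lower. The consensus elements had log2 changes in reads between -0.03 and 0.30 with edgeR adjusted p from 0.111 to 0.928. The third 250 ng library stood apart in the relative numbers of reads, correlating at 0.834 to 0.883 with the non-induced libraries, where the other 250 ng libraries gave 0.941 to 0.977. Leaving it out left 66 relative rises and 12 falls in editing.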

How the data were processed

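Groups and replicate numbers came from the sample titles. Per the labels, amplicons of the reporter were sequenced. Which aligner and edit caller were run was not given in the sources used here. Per element the authors deposited counts of reads, of edited reads and of edits, a percent of edited adenosines and an efficiency score. The deposited percent equals the edits over 7 times the reads, and percent and score were not tested. Entries not listed in all libraries (16) were left out. Since the protocols name no molecular identifiers, several reads may stem from 1 molecule, and the counting errors given take each read as a separate count. Values after ± are SDs over the 3 libraries of a group, and each SE comes from limma.

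Tests ran on log2((edits + 0.5)/(7 × reads − edits + 0.5)), on the same form for edited reads, and on log2 edits per edited read, with limma 3.58.1 (eBayes with trend) in 1 fit of all 4 groups, in which the other groups serve only to estimate the spread. Relative values were first centred on the library median. Reads were tested with edgeR 4.0.16 (quasi-likelihood, TMM), with DESeq2 1.42.0 as an alternative. Adjustment was by Benjamini-Hochberg over 1005 elements, with a call at an adjusted p under 0.05. Library summaries were compared by two-sided exact permutation. The fits were also run on simulated data with independent noise in each library. For the editing measures that noise had 1 spread per group, so spread that differs between elements was not covered. Same-numbered replicates did not deviate together in editing (r = -0.0103 to 0.00506), nor in all 3 pairs for reads (-0.364, 0.765 and 0.556), so they were not treated as pairs.

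The members, the element families and the lists were chosen with earlier results of these data known. Named elements are the 4 consensus elements, the 12 largest relative increases and 6 lowest changes in editing among called elements with separate groups, the 6 largest increases without TGTA, the 4 largest changes each way among calls in the other measures, and the doubles farthest from the sum of their singles. Further elements were chosen after their values were seen: those given for counts of 5 or fewer, with TGTA away from the start, with 1 repeated base, reversed, or lowest in level. Alternatives were other fits, scales, pseudocounts (0.1), a minimum of 5000 reads (941 elements), a replicate block and each library left out. Software was R 4.3.3, Python 3.11.15, pandas 2.3.3, numpy 2.4.6, matplotlib 3.10.9 and scipy 1.17.1.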

Additional observations from a re-analysis of the deposited data

Results flagged for a closer look

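The entry named EMPTY is no 8-base element, what it contains was not given in the sources used here, and it entered none of the comparisons. It was edited too: its level was 1.89%, 2.10% and 2.04% without induction and 7.59%, 7.60% and 7.71% at 250 ng, with means of 2.01% ± 0.111 and 7.63% ± 0.0689 (SD, n = 3). It is given because a signal above that of the non-induced libraries appeared outside the elements described. At 250 ng 795 of the 1005 elements (79.1%) lay above it.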

How the results depend on the processing

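The library medians, the consensus preference, the position effects and the excess of doubles over the sum of their singles kept their direction under every alternative run for them, and absolute editing was called higher in all elements tested (1005, or 941 with at least 5000 reads in every library). Several counts relative to the library median moved by over 1.5 times. On the arcsine square root scale the 97 rises and 33 falls in editing became 153 and 62. In a fit of the 6 compared libraries alone the falls numbered 66 in editing, 58 in the share of edited reads and 3 in edits per edited read. With 1 library left out, editing gave 66 to 91 rises and 12 to 29 falls, the share 43 to 68 and 11 to 29, and edits per edited read 24 to 40 and 0 to 2. The spread of elements within a library had no stable direction: its difference was 0.000907 with at least 5000 reads and -0.00665 to 0.00496 with 1 library left out. The read counts depended on the fit. Where edgeR called none, DESeq2 called 164 higher and 147 lower, edgeR on the 6 libraries alone 237 and 247, and edgeR with the replicate number as a block 135 and 123. The block left editing at 92 rises and 27 falls and changed no other count by over 1.5 times. The causes of these differences were not tested. Of the alternatives for single named elements, 631 kept direction and call, 64 lost the call, 3 gained it and 0 reversed.

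With 3 libraries a group no exact permutation test can go below 0.10. The read depth allows a typical counting error of 0.239 to 0.319 percentage points in the share of edited reads. The arcsine scale was not run for edits per edited read, which is no fraction.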
